A study of Arabidopsis thaliana with 12 samples.

Results

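VAL1 sites, the places where GFP-tagged VAL1 was bound in both of its peak lists, were set against the domains of H3K27me3, trimethylation of lysine 27 of histone H3, in wild-type seedlings. A VAL1 site was any interval covered by peaks of both VAL1-GFP lists, and a domain was any interval of at least 200 bp covered by peaks of both wild-type H3K27me3 lists. This gave 12796 sites, drawn from 16637 and 23773 VAL1-GFP peaks among the 97283 peaks of the 7 lists analysed, and 8155 domains. Chromatin was immunoprecipitated and sequenced (ChIP-seq) from whole 14-day-old Arabidopsis thaliana seedlings of the Col-0 ecotype, kept at 22 °C with 16 h of light and 8 h of darkness a day. The only cold they are stated to have had was as seeds, in 3 days of dark stratification at 4 °C. VAL1-GFP in the val1 mutant had 2 lists and was precipitated with a GFP antibody (Abcam ab290). The double mutant val1val2 had 2 lists and was precipitated with an H3K27me3 antibody (Millipore 07-449). VAL2-GFP in val2, precipitated for GFP, had 1 list that was analysed here. Col-0 wild type had 2 lists and was precipitated for H3K27me3 like the double mutant. Each line had a single input, which was not analysed on its own. The sites therefore come from a plant with a tagged transgene in val1, whose promoter is not given in the sources used here, while the domains come from another genotype. Whole seedlings mix many cell types, so binding in fewer cells and weaker binding cannot be told apart, nor whether a site is bound and marked in the same cell.

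Polycomb repressive complex 2 (PRC2) places H3K27me3 on genes that are kept silent, and in plants it holds the seed and flower programmes off in leaves and roots. VAL1 and VAL2 are repressors with a B3 DNA-binding domain that recognises the RY element, whose core is TGCATG, and they are known for shutting down the seed maturation programme in seedlings. The comparison addresses where, relative to the Polycomb-marked stretches of the genome, VAL1 lies.

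The following 81-base windows, centred between the summits of the 2 VAL1-GFP lists, show what lies under sites in each position. Sequences are from the plus strand of the RefSeq TAIR10.1 assembly, with coordinates on TAIR10, and capitals mark RY cores, TGCATG or CATGCA on the other strand. Overlapping matches within one repeat were counted separately. The sites of DOG1 and SESA3 lay in the middle of a domain.
DOG1, chr5:18591861-18591941: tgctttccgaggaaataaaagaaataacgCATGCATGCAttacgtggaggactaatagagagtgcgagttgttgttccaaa
SESA3, chr4:13611679-13611759: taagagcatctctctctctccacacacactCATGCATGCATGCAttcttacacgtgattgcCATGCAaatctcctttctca
The sites of NAC074, AT2G15020, AGL15 and OLEO1 lay in the outer parts of a domain.
NAC074, chr4:14091390-14091470: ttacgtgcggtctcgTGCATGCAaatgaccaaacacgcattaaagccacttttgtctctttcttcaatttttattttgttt
AT2G15020, chr2:6493589-6493669: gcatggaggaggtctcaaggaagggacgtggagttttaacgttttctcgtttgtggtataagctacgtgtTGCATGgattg
AGL15, chr5:4450980-4451060: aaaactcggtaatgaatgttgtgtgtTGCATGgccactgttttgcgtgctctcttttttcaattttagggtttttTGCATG
OLEO1, chr4:12900284-12900364: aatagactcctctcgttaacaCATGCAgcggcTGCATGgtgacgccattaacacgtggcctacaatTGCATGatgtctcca
The sites of SESA1 and CKX5 lay outside a domain but within 1 kb of its end.
SESA1, chr4:13607214-13607294: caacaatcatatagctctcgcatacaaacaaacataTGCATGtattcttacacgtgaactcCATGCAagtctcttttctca
CKX5, chr1:28315939-28316019: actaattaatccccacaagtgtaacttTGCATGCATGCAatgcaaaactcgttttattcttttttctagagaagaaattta
The sites of AT5G23350 and PETC lay more than 1 kb from any domain.
AT5G23350, chr5:7859877-7859957: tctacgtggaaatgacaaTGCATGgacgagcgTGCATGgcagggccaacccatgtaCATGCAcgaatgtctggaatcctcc
PETC, chr4:1439852-1439932: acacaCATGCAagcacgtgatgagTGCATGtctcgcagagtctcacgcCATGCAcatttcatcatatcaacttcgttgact
The site beside MIR5642a, inside a domain and among the highest in coverage, held no core.
MIR5642a, chr3:14196010-14196090: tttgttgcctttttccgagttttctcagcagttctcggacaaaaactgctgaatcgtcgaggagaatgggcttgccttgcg
Cores were thus present in strong sites in each position, and the strongest sites were not all of that kind.

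The sites had a median length of 359 bp and covered 5.71 Mb together, against 16.4 Mb for the domains, which made up 13.7% of the nuclear genome and had a median length of 1701 bp. The VAL1-GFP lists differed in breadth. Peaks covered 7.93 Mb in list 1 and 14.5 Mb in list 2. Over their 21580 and 34554 summits the median pileup (the authors' read coverage at the summit) was 30 and 20. Of these summits 29.8% and 52.0% had q of at most 0.01. The wild-type H3K27me3 lists were close to each other, with 8324 and 8325 peaks over 17.5 and 17.8 Mb. Each site was placed, in each list, by that list's summit of highest pileup inside it, which placed 11639 sites by list 1 and 10939 by list 2. Another 758 sites held a summit of neither list. Those 758 were short, with a median of 69 bp, and 26.5% of them overlapped a domain. The lists give no read totals, so the depth behind a site is unknown. Values are given as the mean ± SD over the 2 VAL1-GFP lists. Since a site had to be covered in both, the SD reflects mainly where the summits fell and not whether a site was found. Tests between groups of 2 lists cannot go below an exact permutation p of 0.333, so none was made. Intervals are 95% Clopper-Pearson intervals and cover counting error only.

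VAL1 sites were denser inside wild-type domains than in the sequence outside as a whole, although most sites were outside. By list 1, 2769 of 11639 sites had their summit inside a domain, which is 23.8% (95% interval 23.0 to 24.6%), and by list 2, 2570 of 10939, which is 23.5% (22.7 to 24.3%). The mean share was 23.6% ± 0.210 (SD, n = 2), beside the 13.7% of the genome that domains cover. The density was 163 ± 8.59 sites per Mb inside and 83.9 ± 3.45 sites per Mb outside (SD, n = 2). On the 5 chromosomes the inside share ran between 22.2% on chromosome 3 and 24.9% on chromosome 5, and the share of the chromosome covered by domains between 12.7% on chromosome 3 and 14.9% on chromosome 1. A site counted by any overlap of its interval with a domain, in place of its summit, gave 4012 sites or 31.4%.

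Most single sites with a summit in both lists lay on the same side of a domain end in both. Of the 10540 sites with a summit in both lists, 2325 (22.1%) were inside in both, 7887 were outside in both and 328 were inside in 1 list and outside in the other. The summits of the 2 lists were a median of 50 bp apart. Both summits had to lie inside the same site, so this closeness follows in part from how sites were defined. What the lists did not share was placed differently. Of 4173 peaks found in list 1 alone 31.5% lay inside domains, and of 12271 peaks found in list 2 alone 11.2% did. With list 2 left out the inside share was accordingly 26.03%, and with list 1 left out it was 16.7%.

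Many of the sites outside lay just beyond a domain. The share of sites outside a domain but within 1 kb of it was 23.8% ± 0.763 (SD, n = 2), on 12.7% of the genome, and the share farther than 1 kb from any domain was 52.5% ± 0.553, on 73.6% of the genome. In density, the flanks held 178 ± 2.10 sites per Mb, against 163 ± 8.59 in the domains, and the remaining genome 67.7 ± 3.68 sites per Mb. Where both lists placed a site, 9895 sites or 93.9% fell in the same one of the 4 classes used here, the middle of a domain, its outer parts, its flank and the remaining genome. As both summits lie inside the same site by definition, this match is no independent check of placement.

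Pooled over domains of all lengths, the density of sites peaked at the ends of the domains. Moving from outside inward, with distances outside written as negative, it was 79.2 ± 5.90 sites per Mb at -2200 to -2100 bp from the nearest end, 122 ± 6.14 at -1100 to -1000 bp and 166 ± 5.79 at -500 to -400 bp. It reached 246 ± 6.94 sites per Mb in the last 100 bp outside and 261 ± 19.5 in the first 100 bp inside (SD, n = 2). Further in it was 229 ± 28.9 sites per Mb at 100 to 200 bp and 134 ± 3.21 at 500 to 600 bp, and it was 141 ± 4.69 at 1300 to 1400 bp. Both lists had their highest value in the first 100 bp inside, 275 sites per Mb in list 1 and 248 in list 2. Domains under 1000 bp lie wholly within 500 bp of an end. They held 2.70 ± 0.368 sites per 10 kb, against 1.06 ± 0.00533 in domains of 4000 bp or more. The fall on the inside therefore mixes domain length with position, and it was not split by length.

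**Figure D1:**
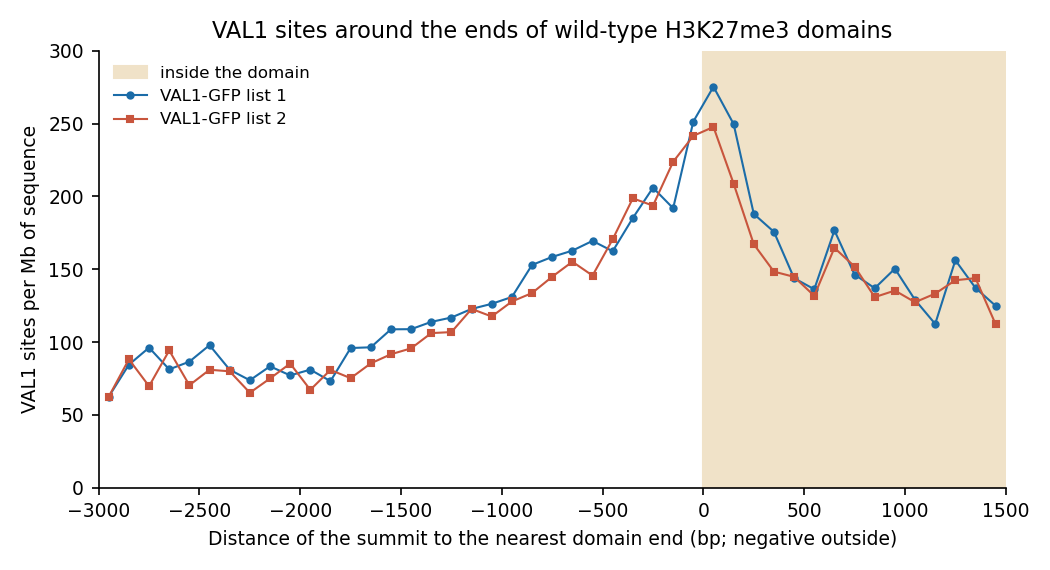
VAL1 sites per Mb of sequence (vertical axis) by the distance of the summit to the nearest end of a wild-type H3K27me3 domain in bp (horizontal axis, negative outside, shaded inside), in bins of 100 bp, 1 line for each VAL1-GFP list. Domains of all lengths are pooled. Both lines climb over about 1500 bp toward the domain end, peak at 275 and 248 sites per Mb just inside it and level off deeper in the domain.

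The plot of density against distance shows that the peak is narrow on the inside and broad on the outside. A site inside a domain had its summit a median of 422 bp from the nearest end in list 1 and 462.5 bp in list 2, and the deepest lay 4666 and 4774 bp in. Within 200 bp of an end lay 840 (30.3%) and 731 (28.4%) of the inside summits, while 19.5% of domain sequence lies that close to an end. These shares also pool all domain lengths. Outside sites had a median distance to the nearest domain of 2705.5 and 2608 bp.

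Relative to the length of each domain the lean toward the ends was slight. The middle 50% of a domain was called its centre and the outer 25% at each end its edge. Of the inside sites 45.6% in list 1 and 46.0% in list 2 were in the centre, 45.8% ± 0.267 (SD, n = 2), where 50% would match the length. In density that was 149 ± 7.00 sites per Mb in the centre and 177 ± 10.2 at the edge. Cut into 10 equal parts along the chromosome, domains held 11.9% and 12.02% of their sites in the first and last part and 8.55% and 8.53% in parts 4 and 5. The centre share differed by domain size and was 42.6% ± 3.71 in domains under 1000 bp, 40.9% ± 1.90 at 1000 to 2000 bp, 47.7% ± 0.947 at 2000 to 4000 bp and 51.1% ± 1.42 at 4000 bp or more. With the edge defined as the 200 bp nearest an end instead, 70.6% of inside summits were away from the ends.

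Turned to follow the gene, the end on the side of the gene's start held the most sites. Of the 8155 domains 6486 overlapped a protein-coding gene and were oriented by the one covering most of the domain. Of 10 equal parts the first, on the side of the start, held 15.6% ± 0.307 of the sites and the last 9.25% ± 0.735 (SD, n = 2). The first 3 parts held 36.9% in each list while the last 3 parts held 27.6% and 26.8%. The median position, on a scale of 0 at the start side and 1 at the far side, was 0.452 and 0.438.

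Sites in the centre of domains lay farther from gene starts than sites away from domains. The median distance from the summit to the nearest start of a protein-coding gene was 778 and 807 bp for centre sites, 588 and 634 bp for edge sites, 675 and 642 bp for flank sites and 482 and 493 bp for sites more than 1 kb from a domain. The share within 250 bp of a start was 18.7% and 20.6% for centre sites, and 33.2% and 35.5% for sites more than 1 kb away. Inside domains 34.7% ± 3.15 of summits fell in coding exons, which make up 34.1% of the domain sequence. More than 1 kb from domains the same share was 19.3% ± 3.46, on 29.3% of the sequence. Untranslated and other non-coding exon sequence held 14.7% ± 0.298 of inside summits, on 8.11% of the sequence, and 29.8% ± 2.19 of the distant ones, on 10.7% of the sequence. In both settings this feature was the one most over its share of sequence.

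Most domains held no VAL1 site, and those that did mostly held 1. In list 1 the domains with 0, 1, 2 and 3 or more sites numbered 5819, 1942, 361 and 33, and in list 2 they numbered 5965, 1842, 318 and 30. The share with a site was 28.6% and 26.9%, 27.7% ± 1.27 (SD, n = 2), and 16.9% and 15.9% of those held more than 1. The highest number was 5 sites in list 1 and 4 in list 2. A site inside in both lists was found in 2011 domains (24.7%). With list 2 left out, so that a single list defined the sites, the share of domains with a site was 41.6%. With VAL1 peaks of −log10 q of at least 2 it was 15.2%, and with at least 10 it was 4.99%.

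A larger share of the longer domains held a site, but with fewer sites for their length. The share with a site was 15.7% ± 2.13 in domains under 1000 bp, 27.1% ± 1.10 at 1000 to 2000 bp, 35.7% ± 1.01 at 2000 to 4000 bp and 39.2% in each list at 4000 bp or more. Over the same classes the number of sites per 10 kb of domain was 2.70 ± 0.368, 2.06 ± 0.126, 1.54 ± 0.0580 and 1.06 ± 0.00533. Domains with a site had a median length of 2171.5 bp by list 1 and 2240 bp by list 2, against 1503 and 1496 bp for domains without one. The minimum length that defines a domain kept few summits out, since the 65 intervals that fell short of it by up to 50 bp held 7 and 4 summits and the 163 that passed it by less than 50 bp held 15 and 10.

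**Figure D2:**
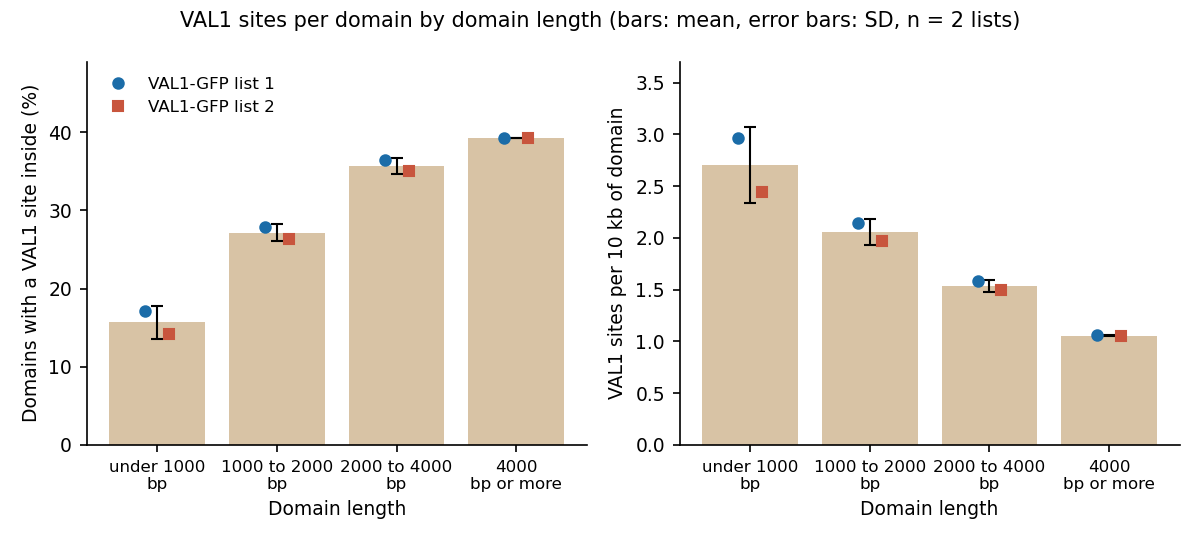
Share of wild-type domains with a VAL1 site inside (left panel, %) and VAL1 sites per 10 kb of domain (right panel) by domain length in bp; bars are means over the 2 VAL1-GFP lists, error bars the SD, points the lists. The share climbs to 39.2% in the longest class while the number per 10 kb falls to 1.06.

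The domains with most sites, 4 each in both lists, were 2 on chromosome 5. One (chr5:2385951-2391159, 5209 bp) covers GRP16, GRP19 and GRP20, which encode glycine-rich proteins, and AT5G07545. Its 4 sites had pileups of 90, 63, 30 and 27 in list 1 and 98, 57, 32 and 17 in list 2, so the first is several times the last. The other (chr5:8162100-8167823, 5724 bp) runs over AT5G24130 and SQP2. There the site at the end by AT5G24130 had pileups of 283 and 290, against 49 or less for the other 3 in either list. Domains with 3 sites each lay at PEL3, a gene needed for the leaf cuticle, at RBCS2B, which encodes a small subunit of Rubisco, and at chr1:23894255-23897082, where no protein-coding gene is annotated.

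The opposite case, a domain without any VAL1 peak of either list inside or within 1 kb, was found 1540 times (18.9% of domains, median length 1483.5 bp). The longest was 7530 bp at HB-3, also known as WOX9, a homeobox gene of the WUSCHEL-related family. The next were 7335 bp over the genes AT1G60400 and AT1G60410, 7084 bp over AT1G49100, AT1G49110 and CRF9, a gene for a cytokinin response factor, 7080 bp over AT4G13575 and AT4G13577, and 6921 bp at the microRNA gene MIR5648. Long wild-type domains thus occurred with no VAL1 peak called at all.

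In the ranking by pileup the 2 lists differed for ordinary sites and were alike at the top. Pileup was turned into a percentile among the placed sites of its list. The median percentile was 55.3 inside and 46.3 outside in list 1, and 49.7 both inside and outside in list 2. The difference, inside minus outside, was 8.98 in list 1 and 0 in list 2, 4.49 ± 6.35 (SD, n = 2), which is less than the spread between the lists. The lists were closer among sites built from more significant VAL1 peaks. With −log10 q of at least 2 the difference was 9.13 and 6.84 (7.98 ± 1.62), and with at least 10 it was 6.89 and 4.29 (5.59 ± 1.84), in both settings larger than the spread. In read coverage the medians were 35 inside and 33 outside in list 1 and 27 in both places in list 2. Sites in the flanks had median percentiles of 55.3 and 56.5 and sites farther away 46.3 and 46.0. Sites inside domains kept their order between the lists, with a Spearman correlation of pileup percentile of 0.812, and 0.724 for sites outside, across 2325 and 7887 sites of the same 2 libraries.

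Among the strongest sites the inside share was higher in both lists. In list 1 it was 18.1% in the lowest 10% of the ranking, 26.2% between the 80th and 90th percentile, 30.9% up to the 95th and 35.7% up to the 99th. In list 2 it was 26.05% in the lowest 10%, 18.9% between the 50th and 60th percentile, 30.1% between the 90th and 95th and 32.6% up to the 99th. Of the top 1%, sites with a pileup of at least 140 in list 1 and 143 in list 2, 59 of 117 and 58 of 110 were inside, 51.6% ± 1.63 (SD, n = 2), and 21.4% and 17.3% were more than 1 kb from any domain.

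**Figure D3:**
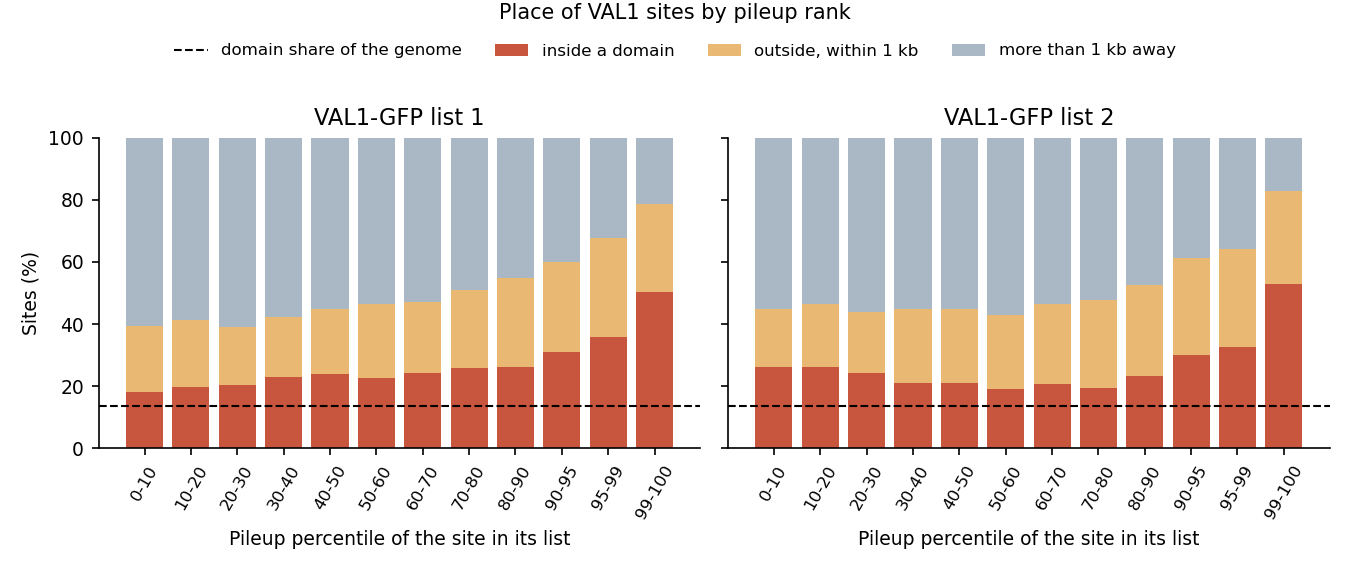
Share of VAL1 sites inside wild-type domains, outside within 1 kb, and more than 1 kb away (vertical axis, %, stacked bars) by pileup percentile of the site within its list (horizontal axis), 1 panel for each VAL1-GFP list; the dashed line is the 13.7% of the genome that domains cover. The inside share is highest in the last bar of each panel, 50.4% in list 1 and 52.7% in list 2.

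The stacked bars by percentile show the climb at the right of each panel and, for list 2, the dip in its middle ranks. By class, 15.7% of centre sites in each list were above the 90th percentile, against 13.2% of edge sites in each list, 12.7% and 13.0% of flank sites and 6.46% and 6.87% of sites farther away. Ranked by the authors' fold enrichment in place of pileup, 45.7% and 44.0% of the top 1% were inside. Domains called only from H3K27me3 peaks with −log10 q of at least 10 held 34.4% of the top 1% by pileup.

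The strongest inside sites with a protein-coding or microRNA gene were named by the mean of their percentiles in both lists. The first by pileup, 400 and 389, lay 228 and 241 bp upstream of AT2G01023 near the end of chromosome 2, but its fold enrichment was 1.30 and 2.53. An annotated ribosomal RNA gene lay 3818 bp away, and no RY core was within 100 bp. The third, with pileups of 337 and 270 upstream of the microRNA gene MIR5642a, was alike: its fold enrichment was 1.53 and 2.49, a ribosomal RNA gene lay 1522 bp away, and it had no core. Among the top 1% by pileup, 7 sites of list 1 and 6 of list 2 were at or below the 90th percentile of fold enrichment, and 5 of these in each list were inside domains. Without the sites within 10 kb of an annotated ribosomal RNA gene, a setting chosen after seeing the data, 50.3% of the top 1% were inside.

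NAC074, which encodes a NAC transcription factor, had the strongest of these inside sites that was also high in fold enrichment. Its summits at chr4:14091428 and chr4:14091432 lay in an intron, with pileups of 330 and 331 and fold enrichments of 18.7 and 35.7. The domain around it (chr4:14087432-14092611, 5180 bp) placed them 1183 and 1179 bp from its nearest end. The gene for the seed storage protein cruciferin C, CRC, lies in the same domain, and the VAL1 site upstream of it was 35 and 5 bp inside the opposite end, with pileups of 44 and 31. This domain rests on weaker H3K27me3 peaks, since with −log10 q of at least 10 the NAC074 site lay outside, at -7598 bp on average from the nearest one.

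Of the other 7 inside sites of that rule 3 lay upstream of a gene, 2 in exon sequence outside the coding part, 1 in an intron and 1 in a coding exon. AT1G62500, annotated in the lipid-transfer and 2S albumin superfamily, had pileups of 314 and 319 in exon sequence outside the coding part, 249 and 247 bp inside the domain end. AT2G15020 had 293 and 300 at 114 and 120 bp upstream of its start and only 10 and 4 bp inside. AT5G24130 had 283 and 290 at 91 and 82 bp inside. AT2G34185 had 241 in each list, 58 and 46 bp inside. These 4 sites thus lay close to an end. AT5G22090 (270 and 268) was 669 and 676 bp inside, AT4G33420, a peroxidase gene, (243 and 231) was 570 and 583 bp inside, and AT4G13210, a pectin lyase gene, (249 and 228) was 1275 and 1268 bp inside. Of the 10 inside sites, 7 were edge and 3 centre sites in both lists. Among all inside sites of the top 1% by pileup, 49.15% in list 1 and 55.2% in list 2 were centre sites, beside 45.8% over all inside sites.

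The strongest sites away from domains had lower pileups than the strongest inside, at most 250 and 234. Among those with a protein-coding or microRNA gene AT5G23350, a gene for a GRAM-domain protein, came first with 233 and 234, its summits 1202 bp from a domain. Then came PDLP3, a plasmodesmata protein gene, with 200 and 187, DRT100 with 199 and 183, and PETC, which encodes the Rieske protein of the photosynthetic cytochrome complex, with 172 and 197. The remaining 6 were at GRF6, a 14-3-3 protein gene, AT3G19030, AT3G44610, AT1G10890, AT2G30766 and BGAL1, a beta-galactosidase gene, with pileups between 136 and 171. The gene AT2G30766 was itself covered by domains over 82.5%, and its summits lay 1242 and 1220 bp from a domain. With wild-type H3K27me3 list 2 left out, that site was at -180 bp on average from the nearest one, a flank position. AT3G44610 and BGAL1 alone of these 10 had no RY core within 100 bp.

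Flank sites included the gene of VAL1 itself. There the pileups were 332 and 336 with fold enrichments of 5.17 and 10.5, at 728 and 735 bp outside a domain. Whether reads of the tagged transgene fall there was not tested. CKX5, a cytokinin oxidase gene, had an intron site of 269 and 266 at 897 and 905 bp outside. AT1G11370, a pectinesterase gene, AT1G12070 and AT1G33760, a gene of the AP2/ERF type, had pileups of 230 to 267, at 124 to 485 bp outside. The gene body was covered by domains over 98.4% at AT1G11370, 91.7% at AT1G12070 and 66.1% at AT1G33760. At these 3 genes the summit was therefore beyond the end of a domain that covers most of the gene.

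The RY core was more frequent at sites inside domains, most of all in their centre. A core lay within 100 bp of the summit at 58.6% and 65.0% of centre sites, 61.8% ± 4.52 (SD, n = 2), at 53.8% ± 2.47 of edge sites, 49.6% ± 0.718 of flank sites and 37.8% ± 2.49 of sites farther away. For all inside sites it was 55.1% (95% interval 53.2 to 56.9%) and 59.9% (58.0 to 61.8%), against 39.98% (39.0 to 41.0%) and 42.9% (41.8 to 43.9%) outside. Windows of the same length taken every 50 bp along the genome held a core in 11.7% of centre windows, 11.6% of edge windows, 8.68% of flank windows, 7.31% of the remaining windows and 8.08% of all. The letters are thus somewhat more frequent in domain sequence itself.

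The order of the classes held within each quintile of the pileup ranking on the means, and narrowed at the top. In the weakest quintile a core was present at 34.2% ± 7.55 of centre sites, 27.7% ± 2.60 of edge sites, 22.3% ± 0.602 of flank sites and 15.9% ± 2.72 of sites farther away. In the strongest quintile the shares were 91.5% ± 0.771, 85.2% ± 0.512, 84.7% ± 0.672 and 82.3% ± 2.20 in the same order of classes. The difference between all inside and all outside sites was 16.1 ± 1.38 percentage points. It was 10.5 points with list 2 left out and 24.5 points with list 1 left out, and 4.31 points for VAL1 peaks with −log10 q of at least 10.

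**Figure D4:**
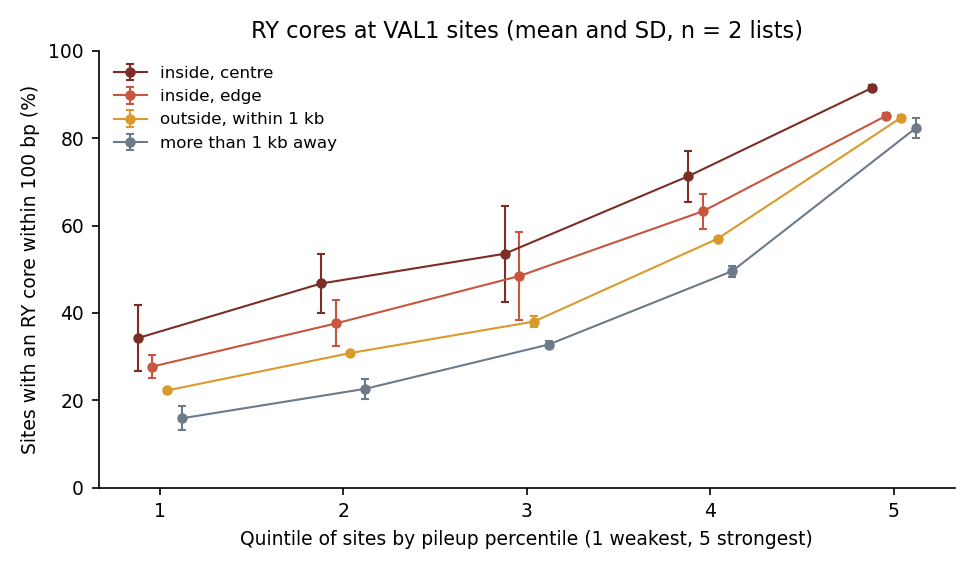
Share of VAL1 sites with an RY core within 100 bp of the summit (vertical axis, %) by quintile of the pileup ranking (horizontal axis, weakest to strongest), for the centre and edge of domains, the flank within 1 kb and the sequence farther away; points are means over the 2 VAL1-GFP lists, error bars the SD. All 4 lines climb, and they lie between 82.3% and 91.5% in the strongest quintile.

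In the plot of RY cores by rank the error bars of centre and edge sites overlap below the strongest quintile. Those of flank and distant sites overlap in the strongest one. These bars include the shift between the lists. Within each list centre was above edge, and flank above distant sites, in each quintile. In the weakest quintile centre and edge were at 28.9% and 25.9% in list 1 and 39.6% and 29.6% in list 2. Counting error was not computed for these shares.

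Genes were then looked up through lists of known roles. A gene had a VAL1 site when the summits of both lists fell in it or in the 1 kb upstream of its start. Of 27432 protein-coding genes, 7864 (28.7%) had a site, 1824 (6.65%) had one inside a domain and 7595 (27.7%) overlapped a domain. Of those 7595 genes 1621 (21.3%) had a site inside a domain. The shares below are read against these.

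Seed storage protein and oil body genes were the list with most sites inside domains. All 12 overlapped a domain, 11 had a VAL1 site and 8 had one inside. OLEO1, which encodes an oleosin of seed oil bodies, had pileups of 159 and 162 at 104 and 84 bp inside its domain. OLEO3 was on the other side of the line, with 83 and 66 at 116 and 127 bp outside. OLEO2 was the member without a site, and domains covered 13.8% of it.

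SESA1, SESA2, SESA3 and SESA4, which encode 2S albumin storage proteins, stand in a row within 1 domain (chr4:13607329-13614246, 6918 bp), and each had its own site just upstream of its start. SESA1 had pileups of 154 and 136, with its summits 86 and 63 bp outside the domain. SESA2 had 38 and 23 in the centre, and SESA3 had 133 and 130, also in the centre. SESA4 had 86 and 108 at the edge, 734 and 730 bp from the end. The domain begins at the annotated start of SESA1, so the site of that gene fell in the flank and those of the other 3 inside. SESA5 on chromosome 5 had 41 and 30 in the centre of its domain. The cruciferin genes CRA1 and CRB had flank sites of 38 and 34 and of 30 and 19, and CRA1 also had a weak site inside, 37 and 20.

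Regulators of seed maturation divided. Of 9 genes, 6 overlapped a domain, 5 had a site and 2 had one inside. DOG1, a regulator of seed dormancy, had 173 and 185 in the centre of a domain of 4141 bp, 1757 and 1754 bp from its end. AGL15, a MADS-box gene active in embryos, had 128 and 145 at 31 and 14 bp inside the end, 54 and 71 bp upstream of its start. ABI3, a B3 regulator of the seed programme, had 134 and 138, but 497 and 486 bp outside. Its summits lay 3512 and 3501 bp downstream of the gene's start, in exon sequence outside the coding part. LEC1, LEC2 and FUS3, the central embryo regulators, had no site, although domains covered 26.9% of LEC1, 96.3% of LEC2 and the whole of FUS3.

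Floral and meristem genes had domains but few sites inside them. All 14 floral genes overlapped a domain, 3 had a site and 1 had it inside. That was AP3, a petal and stamen identity gene, with low pileups of 25 and 20. All 13 meristem and embryo patterning genes overlapped a domain, 4 had a site (KNAT2, KNAT6, CUC1 and CUC2) and 0 had one inside. WUS, STM and CLV3, which keep the shoot stem cells, AG and the SEP genes were covered by domains and had no site.

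Flowering genes showed both positions. Of 14, 8 overlapped a domain, 5 had a site and 2 had one inside. FLC, the repressor of flowering that cold silences, had an intron site inside its domain with pileups of 28 and 29, whose summits lay apart, 318 bp from the start in list 1 and 670 bp in list 2. Its other site, 35 and 30, lay 670 and 727 bp outside at the far end of the gene. TSF, a relative of the flowering signal FT, had 25 and 21 in the centre, and FT had no site. SOC1, a flowering activator, had 57 and 37 at 1 and 53 bp outside.

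Of 12 auxin genes 11 overlapped a domain, 8 had a site and 6 had one inside. YUC4 and YUC5, which encode enzymes of auxin synthesis, had 55 and 46 and 49 and 30, while YUC9, TAA1 and PIN7 had pileups of 30 or less. In phase change, MIR156A, the microRNA that keeps plants juvenile, had 42 and 29 in the centre of its domain, and 2 of 5 genes had a site. Of 16 Polycomb and VAL genes 3 overlapped a domain, 6 had a site and 0 had one inside. The PRC2 enzyme gene CLF was uneven, with pileups of 71 in list 1 and 19 in list 2. Of 7 housekeeping genes 0 overlapped a domain and 3 had a site, a share of 42.9% beside the 28.7% over all genes.

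H3K27me3 in val1val2 is a readout that did not enter the definition of sites or domains. Absence from val1val2, meaning that no peak of either val1val2 list overlapped the domain, was found for 908 of the 8155 domains (11.1%). Among domains with a site inside the share was 14.0% by each VAL1-GFP list, against 9.98% and 10.1% of domains without one. The difference was 3.98 ± 0.0502 percentage points (SD, n = 2). It was 1.91 points with VAL1-GFP list 1 left out, and with list 2 left out it reversed to -0.455 points. It was 8.12 points with VAL1 peaks of −log10 q of at least 2, 15.3 points with at least 10, and 7.185 points in domains of at least 1000 bp. Domains with no site inside but a site within 1 kb were absent in 17.9% and 18.0% of cases, and domains with no site within 1 kb in 6.64% and 6.68%.

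Domain length moved with both measures, so the shares were taken within length classes, where the direction held with each list left out. In domains under 1000 bp, 29.8% ± 0.839 of domains with a site and 22.2% ± 0.0357 of those without were absent. At 1000 to 2000 bp the shares were 19.7% ± 0.234 with and 6.55% ± 0.111 without, at 2000 to 4000 bp 8.26% ± 0.384 with and 1.88% ± 0.113 without, and at 4000 bp or more 1.27% with and 0.205% without. With VAL1-GFP list 2 left out the differences in these 4 classes were 2.42, 7.16, 4.09 and 0.513 percentage points, against 7.59, 13.1, 6.38 and 1.06 with both lists. Domains with a site only in the flank, within 1 kb, were absent in 32.9% ± 0.0789 of cases under 1000 bp, 12.2% ± 0.411 at 1000 to 2000 bp, 4.48% ± 0.517 at 2000 to 4000 bp and 0% at 4000 bp or more. The mean share was thus above that of domains with a site inside in the shortest class and below it in the other 3. The Clopper-Pearson intervals overlapped in both lists in the shortest and longest classes. In the shortest they were 29.3 to 36.4% for flank only and 24.8 to 33.9% for inside by list 1. At 2000 to 4000 bp they overlapped by list 1 only, and at 1000 to 2000 bp by neither. The class of 4000 bp or more holds 4 absent domains with a site and 1 without.

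**Figure D5:**
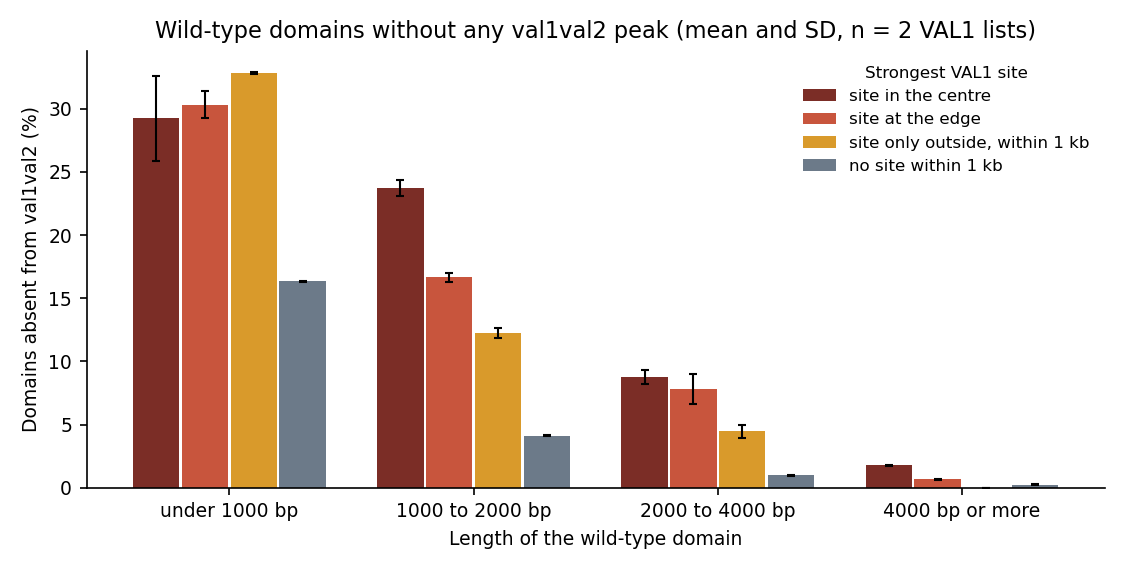
Share of wild-type domains without any val1val2 H3K27me3 peak (vertical axis, %) by domain length in bp (horizontal axis) and by where the strongest VAL1 site lay; bars are means and error bars SD over the 2 VAL1-GFP lists. In each of the first 3 length classes the bar for domains with no site within 1 kb, at 16.3%, 4.14% and 0.987%, is the lowest.

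The bars by length also show centre beside edge sites. In domains under 1000 bp 29.2% ± 3.35 of those with their strongest site in the centre and 30.3% ± 1.10 of those with it at the edge were absent, which is within the spread. At 1000 to 2000 bp the absent shares were 23.7% ± 0.623 for the centre and 16.7% ± 0.357 for the edge. This SD leaves out counting error, and the Clopper-Pearson intervals overlapped in each list. For centre and edge they were 18.3 to 28.88% and 13.31 to 21.06% by VAL1-GFP list 1. By list 2 they were 19.17 to 29.73% and 12.65 to 20.79%. At 2000 to 4000 bp the shares were 8.77% ± 0.540 for the centre and 7.82% ± 1.20 for the edge, which is within the spread. The share also went with the rank of the strongest site. It was 7.89% ± 1.39 below the 20th percentile of pileup, 10.4% ± 0.280 at the 20th to 40th, 11.3% ± 0.542 at the 40th to 60th, 12.1% ± 0.816 at the 60th to 80th, 18.0% ± 2.02 at the 80th to 90th and 26.1% ± 0.00914 above. The domains of the strongest sites were the longer ones, with medians of 2614 and 2602 bp above the 90th percentile and 1958 and 1882 bp below the 20th. The domain beside AT2G34185 was the 1 absent among those of the 10 named inside sites.

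Wild-type enrichment of H3K27me3 also went with VAL1 sites. Domains with a site inside in both VAL1-GFP lists had a median fold enrichment of 2.25 in wild-type list 1 and 2.24 in list 2, against 1.82 in both wild-type lists for domains without a site. In the class of 1000 to 2000 bp the medians were 2.57 and 2.54 with a site and 2.00 in both lists without, and in that of 4000 bp or more 1.78 and 1.77 with a site and 1.71 and 1.70 without. These fold enrichments are the authors' and apply to whole peaks.

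The share of sites under a VAL2 peak was lower inside domains than outside by both VAL1-GFP lists. A VAL2-GFP peak overlapped 9493 of all 12796 sites, 74.2%. The share was 68.9% and 69.0% for centre sites and 69.1% and 68.4% for edge sites, against 81.7% and 82.4% for flank sites and 79.5% and 79.9% for sites farther away. As 1 VAL2-GFP list was analysed, this has no check in a further library. All 25 named sites, the 10 inside, the 5 in the flank and the 10 farther away, overlapped a VAL2-GFP peak.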

How the data were processed

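Peak lists of 7 of the 12 samples were analysed. Per the submitters' processing notes they were called with MACS2 on TAIR10; TopHat2 2.1.1, Cufflinks 2.2.1 and Cuffdiff are also named there. The aligner is not given in the sources used here, nor are the version, control and options of MACS2. Pileup deposited by the authors is a coverage signal, which has no unit of depth, and the fold enrichment deposited by the authors is a ratio over local background. The significance deposited by the authors was read as −log10 p and −log10 q by the MACS2 order of columns, because a spreadsheet error stood in the headers, and −log10 q never exceeded −log10 p. The q of at most 0.01 used above is −log10 q of at least 2.

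Intervals, distances and shares were computed on the 5 nuclear chromosomes with Python 3.11.15, numpy 2.4.6, pandas 2.3.3 and scipy 1.17.1, and the placement was tested on simulated data. Sequence and genes were those of RefSeq TAIR10.1, and 0 peaks ended past a chromosome end. An RY core had to lie whole within 100 bp of the summit. Named sites are the 10 inside, 10 more than 1 kb away and 5 in flanks with the highest mean pileup percentile and a protein-coding or microRNA gene, named domains the 5 with most sites and the 5 longest without a VAL1 peak within 1 kb, and named genes the members of 9 gene lists, all 102 matched. Members and lists were chosen with earlier results of these data known. Nothing in the labels tells whether replicates are separate plants. Alternatives changed the thresholds on q, domain length, joining of domains, definition of a site, edge, rank measure, RY window and the lists used.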

Additional observations from a re-analysis of the deposited data

How the results depend on the processing

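No paired analysis was possible because the results come from no test. With each list left out in turn, the inside share was 16.7 to 26.03%, the centre share 45.5 to 47.3%, the domains with a site 28.8 to 41.6%, the inside minus outside difference in median pileup percentile 0 to 5.76, that in RY cores 10.5 to 24.5 points, that of absent domains -0.455 to 3.74 points, the median position along the gene 0.439 to 0.474 and the inside share of the top 1% 45.0 to 55.5%. Both ends of the RY range, the reversal and the 41.6% come from leaving out a VAL1-GFP list.

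In the other settings the mean pileup difference was 3.73 to 7.98. By list 2 alone it was 6.84 and 4.29 with VAL1 peaks of −log10 q of at least 2 and 10. It was 0 by list 2 with domains of at least 1000 bp, with H3K27me3 peaks of at least 10 and with pairs of summits. Ranked by fold enrichment it was -1.05 by list 2 and 8.51 by list 1. The remaining values follow in the same order as above. VAL1 peaks with −log10 q of at least 2 gave 26.5%, 46.4%, 15.2%, 11.7 points, 8.12 points, 0.432 and 57.4%, and those of at least 10 gave 34.2%, 49.3%, 4.99%, 4.31 points, 15.3 points, 0.4225 and 66.7%. These settings left 5219 and 1213 sites, so their top 1% holds few sites, fewest in the latter. Domains of at least 1000 bp, covering 12.6%, gave 20.3%, 46.3%, 32.8%, 19.9 points, 7.185 points, 0.455 and 48.05%. H3K27me3 peaks of at least 10, whose 3021 domains cover 6.08% of the genome, gave 13.7%, 43.8%, 42.1% and, for absent domains, 5.34 points, with 34.4% for the top 1%. Pairs of summits within 100 bp gave 24.8% inside, 24.5% of domains, 14.5 points for RY and 5.66 points for absent domains. A 200 bp edge left 70.6% in the centre, a 50 bp RY window gave 12.7 points and ranking by fold 44.9% of the top 1%. Joining domains over 500 bp changed nothing, as the smallest gap was 801 bp. Leaving out sites near ribosomal RNA genes moved no value beyond its spread. The settings on ribosomal RNA genes, the top 1% and the distances of named sites were chosen after seeing the data.

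Of 25 named sites 21 stayed on their side of a domain end in all 5 settings on how domains are defined. Many of these outcomes were fixed in advance. Joining changed no domain. Longer or more significant domains could only be fewer or smaller, so sites outside had to stay outside. Leaving out a wild-type list could only widen domains, so sites inside had to stay inside. AT2G01023 was at -42232.5 bp with domains of at least 1000 bp, and with H3K27me3 peaks of at least 10 NAC074 was at -7598 bp, MIR5642a at -5346 bp and AT5G22090 at -47503.5 bp. In each case the alternative removes the domain itself. Unknown depth and 2 lists a group limit all shares, and the breadth of the VAL1-GFP lists limits those outside the top ranks.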
